A study of Arabidopsis thaliana with 39 samples.

Results

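The genes described here code for the enzymes of the Calvin cycle and of photorespiration, together with the carriers and small regulators that belong to both pathways. They were chosen as a list of 40 loci, from the small subunits of Rubisco to the photorespiratory transporters, and 39 of them had a value among the 20001 genes of the table. Of these 39, 21 belong to the Calvin cycle and 18 to photorespiration. All 39 passed the filter on low values, as did every gene of the table. Where a symbol on the list is not in the RefSeq table, the gene goes by its locus.

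The Calvin cycle fixes carbon dioxide in the chloroplast: Rubisco adds it to ribulose bisphosphate, the product is reduced to triose phosphate, and the remaining enzymes rebuild the acceptor. Rubisco also reacts with oxygen, and photorespiration carries the resulting phosphoglycolate through chloroplast, peroxisome and mitochondrion, returning glycerate to the cycle and releasing carbon dioxide and ammonium. Most of these genes are expressed most strongly in green tissue and are known to respond to light, sugar and nitrogen supply.

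The RNA came from whole Arabidopsis thaliana seedlings of the ecotype Col-0, aged 14 days, kept in liquid culture with constant light; the labels name soil or a Murashige-Skoog medium with sucrose for sowing. Seedlings received 20 mM L-Glu (the amino acid L-glutamate), 20 mM urea or 1 mM SA (the labels' short form, read here as the defence hormone salicylic acid), and each treatment was sampled at 6, 12, 24 and 48 h. A mock group given distilled water stood at 0 h, so the 13 groups of 3 libraries came to 39 libraries, all with the same genotype. Urea was the reference for L-Glu and SA at each time, at the dose of L-Glu and not that of SA, and the study asked which genes L-Glu induces. Whether the 3 libraries of a group came from separate cultures is not in the labels. The p-values therefore rest on the spread between libraries alone, and part of it may be technical.

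Values are the authors' normalized values, and sequencing depth is unknown. Differences were taken on the scale log2(value + 1), which understates the change of low genes, and tested with limma in 1 fit over all 39 libraries. A gene was called where the Benjamini-Hochberg adjusted p over all 20001 genes was below 0.05, and errors are standard errors (SE) of the fit or standard deviations (SD) over 3 libraries. Library sums ran from 2445645 to 5886170 and library medians from 46.4 to 56.9. The median difference over all genes between L-Glu and urea at 24 h was -0.10 on the log2 scale as deposited and -1.10 when libraries were brought to a common total, and the higher genes were then 17.9% of all called genes instead of 48.34%. At 12 and 48 h they were 28.4% and 25.6% with equal totals and 54.2% and 47.8% as deposited. On the first principal component, which holds 49.9% of the variance, replicate 2 of L-Glu at 6 h lay at -43.0 with the other replicates at 5.38 and 9.73, and replicate 2 of mock at -52.2 with the others at -80.9 and -79.0. Replicate 2 of L-Glu at 48 h stood apart on the second component, at 46.9 against 3.24 and 3.63. In whole seedlings, fewer cells of a type and less RNA per cell cannot be told apart.

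In L-Glu most genes of both pathways fell together, first slightly and then, for the median gene, to a few percent of the level in urea. In urea the 39 genes held 10.2% ± 0.192 (SD, n = 3) of all values of a library at 6 h, 9.30% ± 0.586 at 12 h, 8.46% ± 0.662 at 24 h and 6.15% ± 0.256 at 48 h. In L-Glu they held 8.03% ± 0.925 at 6 h, 3.57% ± 0.292 at 12 h, 0.293% ± 0.0955 at 24 h and 0.197% ± 0.0442 at 48 h. In SA their part was 7.14% ± 0.715 at 6 h and 5.84% ± 0.582 at 48 h, and in mock it was 9.39% ± 0.956. These parts are sums within a library, in which long and strongly expressed genes weigh most. The library sums themselves were higher in L-Glu than in urea from 12 h on. At 24 h they ran from 5278622 to 5886170 in L-Glu and from 2571045 to 2688591 in urea. The part of the 39 genes in L-Glu thus fell further than their values did. From 24 h on, no L-Glu library came near the lowest urea library, whose members held 7.88% of all values at 24 h.

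**Figure D1:**
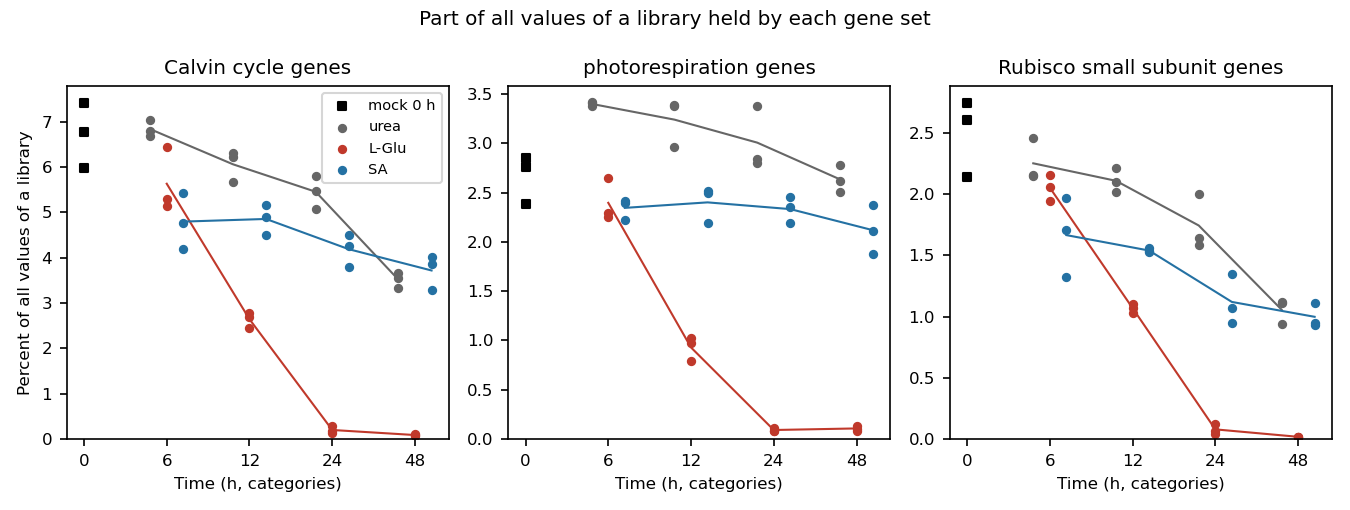
Part of all values of a library held by the 21 Calvin cycle genes, the 18 photorespiration genes and the 4 Rubisco small subunit genes, in percent, against time in hours as categories; each point is a library and lines join the means of 3. All L-Glu libraries at 24 and 48 h lie near the bottom of each panel, where the 39 genes together held 0.293% and 0.197% of all values on average.

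Against urea at 6 h, 6 of the 39 genes were called lower in L-Glu, where 3.15% of all genes were lower, and none was called higher, where 8.36% of all genes were. Their median log2 difference was -0.35. This count rests on few libraries: 3 genes were called without replicate 1 of urea at 6 h, 2 without its replicate 2, 2 without its replicate 3, 1 without replicate 1 of L-Glu at 6 h and 2 without its replicate 3, while 9 were called without the library that stood apart, replicate 2 of L-Glu at 6 h. At 12 h, 29 genes were lower and 1 was higher, against 21.9% and 25.8% of all genes, and the median was -0.97. At 24 h, 36 were lower and 1 higher, against 31.3% and 29.3% of all genes, and at 48 h 37 were lower and 1 higher, against 27.6% and 25.2%. By pathway, 2 of the 21 Calvin cycle genes and 4 of the 18 photorespiration genes were called lower at 6 h, 14 and 15 at 12 h, 19 and 17 at 24 h, and 20 and 17 at 48 h. Their medians at 12 h were -0.66 and -1.21, and at 48 h -5.01 and -3.93. Over all 39 genes the median difference was -3.87 at 24 h and -4.82 at 48 h, where the median over all genes was -0.10 and -0.06. Without replicate 2 of L-Glu at 48 h the counts at 48 h were again 37 lower and 1 higher. All 3 L-Glu libraries lay below all 3 urea libraries for 22, 31, 36 and 37 of the 39 genes at 6, 12, 24 and 48 h, against 13.7%, 28.2%, 32.8% and 27.5% of all genes. The median gene stood at 78.8%, 51.2%, 6.85% and 3.49% of its urea mean at these 4 times. In L-Glu at 48 h the means ran from 0.261% of urea in RBCS2B, 0.473% in GOX1 and 0.567% in RBCS1B to 50.1% in TIM and 51.6% in AOAT2, with CP12-3 at 370.0%.

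The genes at the ends of the order changed with time. At 6 h the lowest were AT5G36790 at -0.78, which was not called, GLDP1 at -0.75 and GGT1 at -0.73, and the highest CP12-3, RBCS1B and GAPA-2 at 0.90, 0.33 and 0.16, none of them called. At 12 h CP12-2 at -1.88, GLDP1 at -1.85 and GOX1 at -1.52 were lowest, and CP12-3 at 1.70 was followed by AT5G36790 at 0.44 and GAPA-2 at 0.13, both not called. After quantile normalization GAPA-2 was at -0.61 at 12 h. RBCS2B, FBA1 and GDCH were lowest at 24 h, and RBCS2B, GOX1 and RBCS1B at 48 h. Rubisco small subunit genes were thus among the 3 lowest at 24 and 48 h and not at 6 or 12 h.

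**Figure D2:**
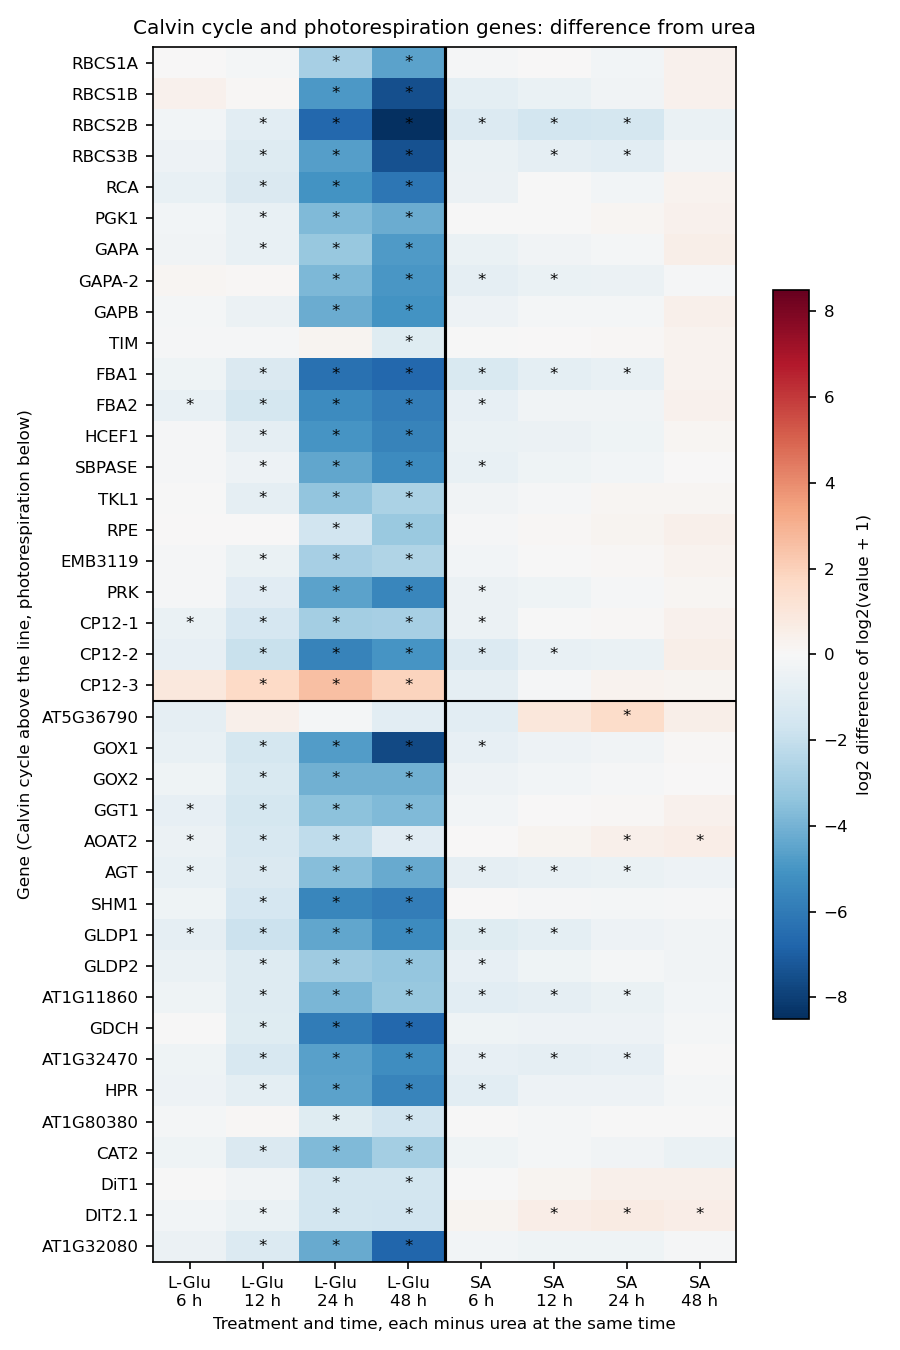
Log2 difference from urea at the same time for the 39 genes, in L-Glu (left) and SA (right), with the Calvin cycle above the line and photorespiration below it; a star marks an adjusted p below 0.05. The L-Glu columns darken towards blue from 12 or 24 h on in all genes but CP12-3, the locus AT5G36790 and, until 48 h, TIM, while the SA columns stay pale and reach a median of 0.20 at 48 h as deposited.

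The 250 bases before the annotated gene start are shown for 4 genes that stand for the range of the data: RBCS1A, the small subunit gene that fell least; RBCS2B, the member that fell furthest; GLDP1, a photorespiratory gene already lower at 6 h; and CP12-3, the single member that rose. The sequences are those of the RefSeq genome in build TAIR10.1, all on the strand of the gene and all outside annotated exons. Capitals mark the G-box CACGTG and the I-box GATAAG (or CTTATC on the other strand), elements known from the promoters of light-responsive genes. In the order printed, the windows lie at chr1:25049668-25049917 (minus strand), chr5:15382072-15382321 (minus strand), chr4:15931423-15931672 (minus strand) and chr1:28727956-28728205 (plus strand).
RBCS1A: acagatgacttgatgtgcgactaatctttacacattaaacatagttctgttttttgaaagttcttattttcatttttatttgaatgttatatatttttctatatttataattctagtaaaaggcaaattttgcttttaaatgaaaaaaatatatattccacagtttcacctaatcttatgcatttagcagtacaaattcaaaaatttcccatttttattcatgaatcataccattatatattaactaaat
RBCS2B: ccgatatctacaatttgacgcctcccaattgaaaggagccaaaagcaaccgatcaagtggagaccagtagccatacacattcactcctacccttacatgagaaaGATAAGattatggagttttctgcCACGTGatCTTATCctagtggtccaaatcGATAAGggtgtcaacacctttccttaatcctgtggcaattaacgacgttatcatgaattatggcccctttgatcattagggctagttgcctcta
GLDP1: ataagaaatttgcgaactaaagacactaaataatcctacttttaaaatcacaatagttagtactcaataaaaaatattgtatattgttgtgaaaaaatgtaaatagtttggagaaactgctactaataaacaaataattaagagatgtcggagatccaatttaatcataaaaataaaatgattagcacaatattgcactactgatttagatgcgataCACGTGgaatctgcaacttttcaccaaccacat
CP12-3: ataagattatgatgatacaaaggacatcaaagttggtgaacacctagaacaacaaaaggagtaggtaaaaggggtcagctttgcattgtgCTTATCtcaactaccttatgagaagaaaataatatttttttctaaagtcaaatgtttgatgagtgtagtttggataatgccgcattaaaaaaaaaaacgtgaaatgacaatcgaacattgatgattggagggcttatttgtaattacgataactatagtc

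Rubisco has a plastid-coded large subunit and a small subunit that comes from 4 nuclear genes, RBCS1A (AT1G67090), RBCS1B (AT5G38430), RBCS2B (AT5G38420) and RBCS3B (AT5G38410). The 4 genes held 2.25% ± 0.176 of all values in urea at 6 h and 1.06% ± 0.0987 in urea at 48 h, against 2.05% ± 0.108 and 0.0186% ± 0.00210 in L-Glu. RBCS2B, the lowest member in L-Glu at 24 and 48 h, had values of 8452, 9111 and 6982 in urea and 4438, 4369 and 4178 in L-Glu at 12 h. At 24 h its values were 5655, 6082 and 6742 in urea and 43.8, 126 and 36.9 in L-Glu, and at 48 h they were 2327, 3711 and 2549 in urea and 6.55, 3.74 and 12.13 in L-Glu. No L-Glu library reached any urea library at these 3 times, and the log2 differences were -0.91, -6.68 and -8.49 (SE 0.31; adjusted p = 0.0168, 8.74e-19 and 1.31e-21). RBCS1A was not yet called at 12 h, with values of 27710.5, 27886 and 25293 in urea and 23381, 23098 and 25636 in L-Glu, a difference of -0.17 that did not pass the threshold (adjusted p = 0.626). By 24 h its L-Glu values were 3253, 5394 and 2047, all below the urea values of 21142, 21972 and 26067 (log2 difference -2.80, SE 0.26, adjusted p = 2.22e-11). At 48 h the 3 L-Glu libraries agreed closely at 614, 597 and 590.5, far under the urea values of 16503, 11696 and 14854 (log2 difference -4.56, SE 0.26, adjusted p = 1.25e-16).

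Like RBCS1A, RBCS1B was not called at 12 h (0.084), and it then fell to a log2 difference of -4.87 at 24 h and -7.49 at 48 h. RBCS3B had values of 9370.4, 7351 and 8628 in urea and 42.4, 41.3 and 66.6 in L-Glu at 48 h, without overlap (log2 difference -7.40, SE 0.28, adjusted p = 3.52e-21). Per kilobase of coding sequence, RBCS1A made up 48.0% ± 0.747 of the 4 genes in urea at 6 h and 54.0% ± 3.92 in urea at 48 h. In L-Glu its part was 53.8% ± 1.83, 59.4% ± 0.433, 82.8% ± 3.58 and 90.7% ± 3.25 at 6, 12, 24 and 48 h, and in SA it ran from 58.3% ± 2.65 at 6 h to 64.3% ± 1.84 at 48 h. The coding sequences of the B copies are 94.1% to 97.3% identical and RBCS1A shares 87.7% to 90.1% with them, so reads that fit several copies may have been split between them, and the values of the B copies are uncertain.

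Rubisco activase, RCA (AT2G39730), removes inhibitory sugar phosphates from the active site. Its values were 48918, 52906 and 51351 in urea and 31757, 39582 and 27668 in L-Glu at 6 h and 44597, 47110.1 and 39999 in urea and 21959, 18481 and 17123 in L-Glu at 12 h. At 24 h they were 38160.5, 48877 and 36614 in urea and 1270.4, 1769 and 828 in L-Glu, and at 48 h 23967, 27245 and 24349 in urea and 452, 359.5 and 278 in L-Glu. The groups did not overlap at any time, although at 6 h the difference of -0.64 missed the threshold (adjusted p = 0.106). RCA fell to a log2 difference of -1.20, -5.05 and -6.14 at the later times (SE 0.26 each).

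Phosphoglycerate kinase and glyceraldehyde phosphate dehydrogenase carry out the reduction phase, and triose phosphate isomerase then interconverts the triose phosphates. PGK1 (AT3G12780), the kinase, fell to a log2 difference of -0.66 at 12 h and -4.24 at 48 h. The dehydrogenase genes GAPA (AT3G26650), GAPA-2 (AT1G12900) and GAPB (AT1G42970) stood at -3.20, -3.80 and -4.23 at 24 h and at -4.82, -4.93 and -5.10 at 48 h, all called. GAPB, the subunit gene through which the plastid enzyme is regulated, had values of 3902, 4763 and 4489 in urea and 144, 85.9 and 162 in L-Glu at 48 h (log2 difference -5.10, SE 0.23, adjusted p = 1.6e-19). These groups did not overlap.

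TIM (AT2G21170), the plastid triose phosphate isomerase, took another course. Its values at 24 h were 884, 915 and 889 in urea and 1260.3, 1049 and 841 in L-Glu, with 1 L-Glu library below the urea range and the others above it, a difference of 0.21 (adjusted p = 0.128). That sign depends on the scaling: TIM was at -0.96 after quantile normalization and at -0.87 with equal library totals. At 48 h the values were 615, 617 and 634 in urea and 315, 284 and 335 in L-Glu, without overlap, and TIM fell (log2 difference -0.998, SE 0.12, adjusted p = 7.8e-09). Over all 4 times it was the least lowered of the called members, at -0.24 (SE 0.060, adjusted p = 0.000551).

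In the regeneration phase, aldolases, bisphosphatases, transketolase, an epimerase and an isomerase rebuild the acceptor, and phosphoribulokinase adds its last phosphate. The plastid aldolase gene FBA1 (AT2G21330) had values of 2725, 3757 and 3313 in urea and 26.4, 76.0 and 27.9 in L-Glu at 24 h, and of 1812, 1901 and 1678 in urea and 13.5, 22.9 and 15.3 in L-Glu at 48 h. All L-Glu libraries lay below all urea libraries, with log2 differences of -6.36 at 24 h and -6.66 at 48 h (SE 0.25; adjusted p = 9.73e-21 and 1.31e-21). FBA2 (AT4G38970), another plastid aldolase gene, was called lower as early as 6 h, when its values were 8234, 9716 and 10946 in urea and 5767, 7061 and 5581 in L-Glu (log2 difference -0.65, SE 0.19, adjusted p = 0.023). That call was lost in 7 of the alternative fits. At 48 h FBA2 stood at 5143, 4484 and 4547 in urea and 101, 53.5 and 93.1 in L-Glu (-5.87). SBPASE (AT3G55800), the sedoheptulose bisphosphatase specific to the cycle, had values of 1663, 2324 and 1889.9 in urea and 43.6, 49.1 and 48.05 in L-Glu (log2 difference -5.34, SE 0.19, adjusted p = 2.99e-22). PRK (AT1G32060), the phosphoribulokinase, had 2852, 4049 and 3299.9 in urea and 81.7, 64.0 and 68.2 in L-Glu (log2 difference -5.55, SE 0.18, adjusted p = 4.64e-23). In both genes the highest L-Glu library was far below the lowest urea library. HCEF1 (AT3G54050), the chloroplast fructose bisphosphatase, fell to a log2 difference of -5.67. The fall was smaller in TKL1 (AT3G60750, transketolase) at -2.68, RPE (AT5G61410, ribulose phosphate epimerase) at -3.16 and EMB3119 (AT3G04790, ribose phosphate isomerase) at -2.54, all called. RPE was called for the first time at 24 h, at -1.64.

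CP12 proteins are small redox-sensitive proteins that tie up glyceraldehyde phosphate dehydrogenase and phosphoribulokinase in the dark, and their 3 genes parted ways in L-Glu. CP12-2 (AT3G62410) had values of 997, 1201 and 1162 in urea and 14.2, 20.3 and 31.7 in L-Glu at 24 h, and of 469.8, 561 and 608 in urea and 21.6, 9.83 and 18.5 in L-Glu at 48 h. It fell to a log2 difference of -5.67 and -5.01. CP12-1 (AT2G47400) went from 757, 784 and 893 in urea and 506, 656 and 517 in L-Glu at 6 h (log2 difference -0.54, SE 0.16, adjusted p = 0.0238) to 564, 579 and 715 in urea and 65.0, 81.3 and 99.0 in L-Glu at 24 h (-2.92). The call at 6 h was lost in 6 of the alternative fits. At 48 h CP12-1 stood at 581, 522 and 612 in urea and 69.0, 76.2 and 91.8 in L-Glu (-2.85), no lower than at 24 h.

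CP12-3 (AT1G76560), a gene with low values, was higher in L-Glu. Its values were 13.3, 11.4 and 7.99 in urea and 27.2, 12.7 and 25.6 in L-Glu at 6 h, where the groups overlapped, and 12.6, 15.9 and 9.35 in urea and 40.3, 38.0 and 49.7 in L-Glu at 12 h. They were 11.5, 14.0 and 6.48 in urea and 48.9, 69.9 and 77.1 in L-Glu at 24 h and 23.8, 14.3 and 10.6 in urea and 59.6, 58.1 and 62.5 in L-Glu at 48 h. From 12 h on every L-Glu library exceeded every urea library. The log2 differences were 0.90 at 6 h (adjusted p = 0.0905), 1.70 at 12 h (0.000103), 2.54 at 24 h (7.9e-08) and 1.90 at 48 h (1.62e-05). CP12-3 was the single member called higher in any L-Glu comparison with urea, and it stayed so after quantile normalization and with libraries at the same total.

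Photorespiration starts with phosphoglycolate phosphatase. The gene AT5G36700 (2-phosphoglycolate phosphatase 1 in RefSeq) was not analysed here, having no value, and the locus AT5G36790 has the same coding sequence over all 1089 bases, so reads cannot be assigned between them. The values of AT5G36790 were 0, 2.49 and 1.21 in urea and 0.0627, 0 and 0.182 in L-Glu at 48 h, too low to compare, and no L-Glu difference was called.

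Glycolate oxidase turns glycolate into glyoxylate in the peroxisome, and catalase removes the peroxide formed. GOX1 (AT3G14420) had values of 8091, 8646 and 8999 in urea and 5326, 6199 and 5493 in L-Glu at 6 h, and of 8357, 8604 and 7373 in urea and 3011, 2984 and 2486 in L-Glu at 12 h. At 24 h they were 6350.0, 8221 and 7081 in urea and 296, 388 and 155 in L-Glu, and at 48 h 4924, 5237 and 5045 in urea and 26.2, 27.3 and 18.4 in L-Glu. The groups did not overlap at any time, and the differences were -0.60 (not called, adjusted p = 0.0522), -1.52, -4.78 and -7.69 (SE 0.20, adjusted p = 7.63e-25 at 48 h). GOX2 (AT3G14415), with a coding sequence 90.9% identical, fell to a log2 difference of -4.09 at 24 h and -4.11 at 48 h. CAT2 (AT4G35090), the leaf catalase, had 5497, 7397 and 7203 in urea and 462, 349.9 and 767 in L-Glu at 24 h, and 8174, 6191 and 6569 in urea and 1075, 925 and 773 in L-Glu at 48 h. It fell to a log2 difference of -3.73 and -2.92, with every L-Glu library below every urea library.

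Peroxisomal aminotransferases then make glycine. GGT1 (AT1G23310) and AOAT2 (AT1G70580) code for glutamate:glyoxylate aminotransferases, which use glutamate as the amino donor, and AGT (AT2G13360) for the serine:glyoxylate aminotransferase. All 3 were called lower at 6 h, at -0.73, -0.49 and -0.63, and these calls were lost in 3, 7 and 8 of the alternative fits. GGT1 had values of 6562, 8698 and 6999 in urea and 546, 631 and 480.3 in L-Glu at 48 h (log2 difference -3.74, SE 0.18, adjusted p = 1.78e-18). AOAT2 came partly back towards urea. Its urea values were 203, 235 and 213 at 24 h and 168, 197 and 161 at 48 h, and its L-Glu values were 54.1, 47.9 and 40.6 and 79.3, 98.2 and 94.1. The L-Glu libraries of 48 h lay above those of 24 h and still below urea, with differences of -2.17 and -0.95 and a called change between them of 1.23 (SE 0.20, adjusted p = 4.56e-05).

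In the mitochondrion the glycine decarboxylase complex of P, H, T and L proteins and serine hydroxymethyltransferase convert glycine to serine. GLDP1 (AT4G33010), a P-protein gene, was called lower from 6 h on, though the call at 6 h was lost in 7 of the alternative fits. Its values at 6 h were 18931, 17282 and 18525 in urea and 11121, 10091 and 11354 in L-Glu (log2 difference -0.75, SE 0.22, adjusted p = 0.0178), and at 48 h they were 15571, 13729 and 12159.6 in urea and 451, 312 and 289 in L-Glu (log2 difference -5.32, SE 0.22, adjusted p = 1.73e-20). GLDP2 (AT2G26080), the other P-protein gene, had 6145, 4618 and 3921 in urea and 627, 379.5 and 505 in L-Glu at 48 h (-3.28). Neither gene's groups overlapped. GDCH (AT2G35370), an H-protein gene, fell to a log2 difference of -5.94 at 24 h and -6.65 at 48 h. AT1G32470, whose coding sequence is 87.6% identical to that of GDCH, fell to a log2 difference of -4.63 and -5.26, and AT1G11860, annotated as a T-protein gene, to -3.87 and -3.21. As deposited, AT1G11860 was, with AOAT2, the member whose difference shrank between 24 and 48 h past the threshold, by 0.66 (adjusted p = 0.0366). SHM1 (AT4G37930), the photorespiratory serine hydroxymethyltransferase, had values of 9628, 12232 and 10094 in urea and 216, 156 and 172 in L-Glu at 48 h (log2 difference -5.87, SE 0.20, adjusted p = 1.94e-22).

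HPR (AT1G68010), the peroxisomal hydroxypyruvate reductase, fell to a log2 difference of -4.56 at 24 h and -5.61 at 48 h. AT1G80380, annotated as a P-loop nucleoside triphosphate hydrolase, fell by less, to -1.0005 and -1.63. The chloroplast carriers differed widely. LrgB (AT1G32080), listed as the plastid carrier of glycolate and glycerate, had values of 1172, 1496 and 1217 in urea and 11.2, 4.61 and 26.3 in L-Glu at 48 h, without overlap (log2 difference -6.71, SE 0.30, adjusted p = 2.09e-19). The dicarboxylate carriers, which move oxoglutarate, malate and glutamate for the reassimilation of ammonium, fell far less. DiT1 (AT5G12860) had 476, 349 and 394 in urea and 169, 107 and 139.8 in L-Glu (log2 difference -1.56, SE 0.19, adjusted p = 1.01e-08), and DIT2.1 (AT5G64290) fell to a log2 difference of -1.62.

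**Figure D3:**
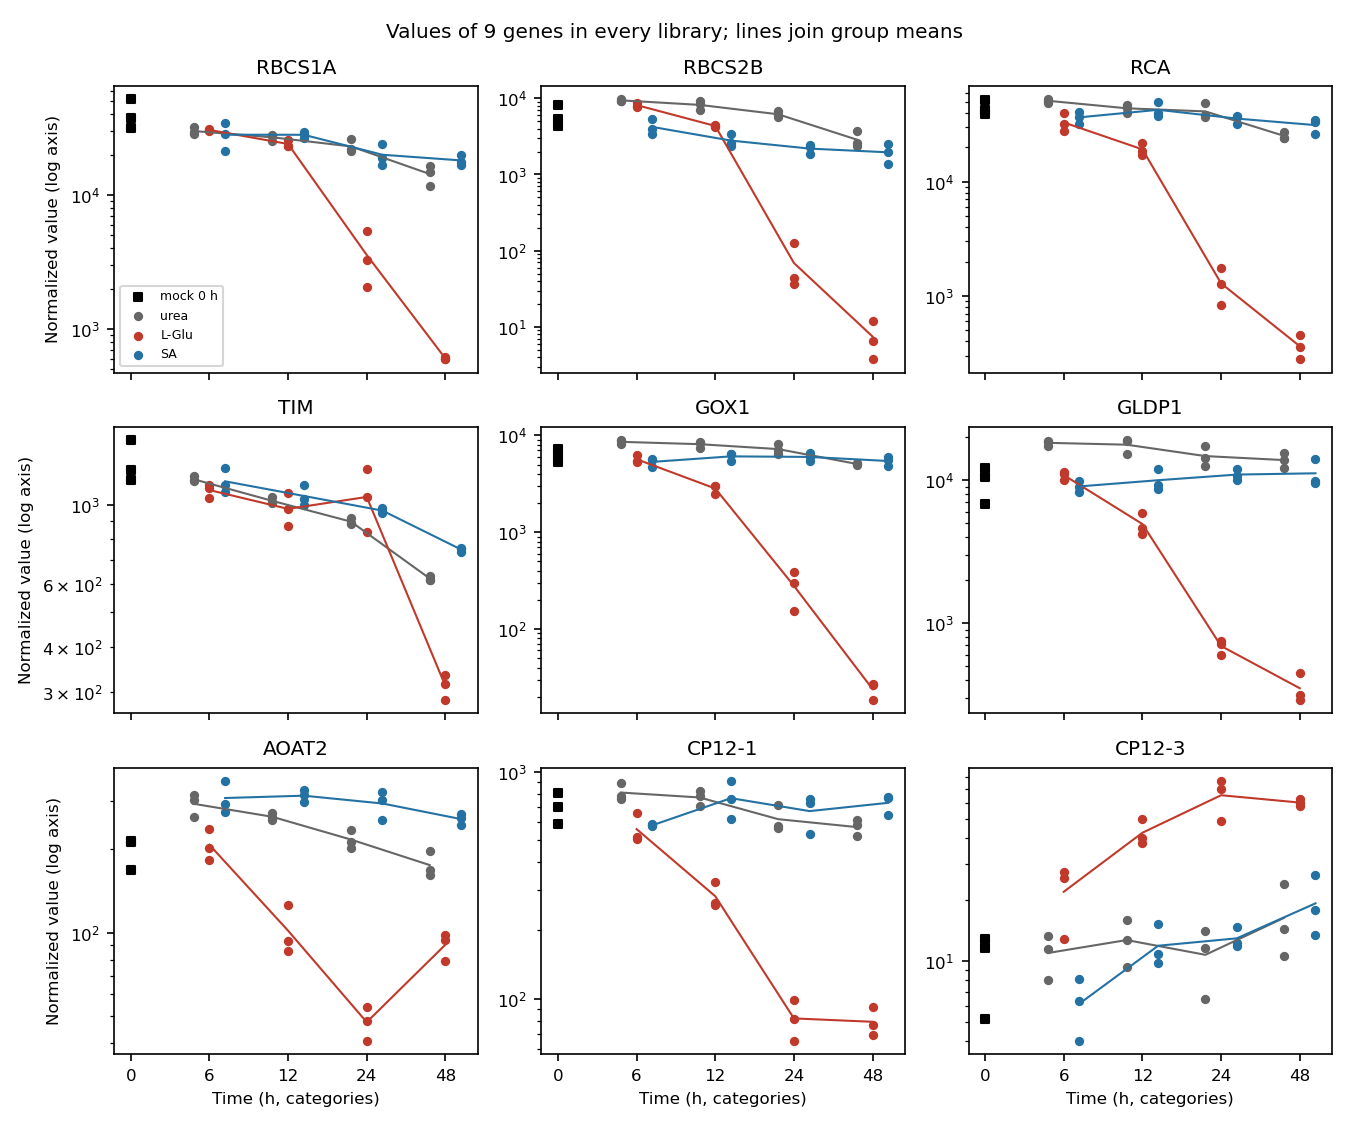
Normalized values of 9 genes in every library on a log axis, against time in hours as categories; black squares are mock at 0 h, grey points urea, red points L-Glu and blue points SA, and lines join the means of 3 libraries. In L-Glu, RBCS2B and GOX1 go down through the 48 h sample, AOAT2 turns up between 24 and 48 h, TIM is called lower than urea at 48 h alone, and CP12-3 is called higher from 12 h on.

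By the first time of a call, 6 genes were lower in L-Glu from 6 h (FBA2, CP12-1, GGT1, AOAT2, AGT and GLDP1), 23 from 12 h, 7 from 24 h and 1, TIM, at 48 h. The 6 calls at 6 h were lost, in that order, in 7, 6, 3, 7, 8 and 7 of the alternative fits. None was left without replicate 1 or without replicate 3 of every group. The genes first called at 24 h were RBCS1A, RBCS1B, GAPA-2, GAPB, RPE, AT1G80380 and DiT1. After quantile normalization GAPA-2, RPE and AT1G80380 were called lower at 12 h already, at -0.61, -0.79 and -0.65, so this order depends on the scaling. A later call does not by itself show a later fall, so the change of the L-Glu difference between times was tested. From 6 to 12 h it went down in 13 genes, against 4.88% of all genes, and up in none, against 11.6%. That count is not stable: 8 genes were called without replicate 1 of urea at 6 h, 8 without replicate 1 of urea at 12 h, 6 without replicate 3 of L-Glu at 12 h and 4 without replicate 2 of L-Glu at 6 h, and it rose to 29 with libraries at the same total. From 12 to 24 h it went down in 36 genes, against 10.9% of all genes, and up in none, against 6.77%. The steepest were RBCS2B at -5.77, FBA1 at -5.11 and RBCS1B at -4.95. From 24 to 48 h it went down in 16 genes and up in 2, against 14.4% and 8.15% of all genes, led by GOX1 at -2.91, RBCS3B at -2.74 and RBCS1B at -2.62. The 18 calls became 9 without replicate 1 or without replicate 2 of every group, 12 without replicate 2 of L-Glu at 24 h and 11 in a fit of the compared groups alone, and with equal totals 9 went down and 7 up. From 6 to 48 h it went down in 36 genes and up in none, against 19.1% and 16.4%. The 3 genes outside were CP12-3 at 1.00, AT5G36790 at -0.10 and AOAT2 at -0.45.

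A log2 difference of -4 or below was reached by 19 called genes at 24 h and by 24 at 48 h, against 0.505% and 1.20% of all genes. At 48 h, 31 genes were further from urea than at 24 h, on either side of it, and 8 were not. Averaged over the 4 times, 37 genes were lower and 1 higher in L-Glu, against 36.4% and 33.0% of all genes. The lowest were RBCS2B at -4.07, FBA1 at -3.66 and GOX1 at -3.65, and the highest CP12-3 at 1.76. Across the 39 libraries, the log2 values of 33 genes had a Pearson correlation above 0.9 with the mean of the other members, and CP12-3 one of -0.78. Those correlations are a description, since all genes share the libraries and their scaling.

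SA was compared with the same urea libraries as L-Glu, so the comparisons share their controls. Its median difference was further from 0 than that of L-Glu at 6 h and nearer to it at 12, 24 and 48 h. At 6 h, 15 genes were lower and none higher in SA, against 13.5% and 15.9% of all genes, and 9 were called without replicate 2 of SA at 6 h. At 12 h, 9 were lower and 1 higher, against 15.6% and 16.2%, and 6 were called without replicate 1 of SA. At 24 h, 6 were lower and 3 higher, against 15.5% and 15.1%, and the 9 calls became 5 without replicate 2 of urea, 4 without replicate 3 of urea and 3 without replicate 1 of SA. At 48 h none was lower and 2 were higher, against 14.9% and 13.5%, and 1 was called without replicate 3 of urea or without replicate 1 of SA. At 24 and 48 h the share of the members called lower was thus near or below that of all genes. The median difference went from -0.49 at 6 h to 0.20 at 48 h, and the median gene from 71.7% to 115.5% of its urea mean. The sign at 48 h depends on the scaling, with a median of -0.075 and 5 genes lower after quantile normalization and a median of 0.025 and 2 lower with equal totals.

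At 6 h the lowest genes in SA were FBA1 at -1.32, RBCS2B at -1.19 and CP12-2 at -1.14, and at 12 h RBCS2B, GLDP1 at -0.83 and FBA1 at -0.82. At 24 h they were RBCS2B, RBCS3B at -0.87 and AT1G32470 at -0.70. CP12-2 had values of 1599.5, 1610.5 and 1707 in urea and 930.0, 703 and 632 in SA at 6 h, without overlap, and of 469.8, 561 and 608 in urea and 722, 903 and 686 in SA at 48 h, where all SA libraries lay above urea and the difference of 0.49 was not called. AGT lay below urea in all 3 SA libraries at every time, with 8738, 9034 and 8199 in urea and 4871, 5796 and 4769 in SA at 6 h (log2 difference -0.76, SE 0.20, adjusted p = 0.00333) and 6823, 6801 and 5731 in urea and 5018, 5261 and 3995 in SA at 48 h, when the difference of -0.44 was not called (adjusted p = 0.0877). SHM1 was called at none of the 4 times in SA, with 16441, 17185 and 16674 in urea and 16730.2, 16496 and 17897 in SA at 6 h and 9628, 12232 and 10094 in urea and 10711, 9818 and 8595 in SA at 48 h, and its differences lay between -0.17 and 0.023 at the 4 times.

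RBCS2B was the gene lowered most by SA over the 4 times. Its values at 6 h were 9207, 9176 and 9763 in urea and 5331, 3372 and 3900.2 in SA, and at 24 h 5655, 6082 and 6742 in urea and 1847, 2273 and 2431 in SA, without overlap at either time. It fell to a log2 difference of -1.19 at 6 h, -1.56 at 12 h and -1.50 at 24 h (SE 0.31; adjusted p = 0.00409, 0.000204 and 0.000345), and at 48 h, with values of 1953, 2543 and 1357, it was at -0.57 (adjusted p = 0.184). Over the 4 times it stood at -1.20 (adjusted p = 5.18e-08), ahead of GLDP1 at -0.65 and FBA1 at -0.62. GLDP1 had 8934, 8309 and 9894 in SA at 6 h and 14097, 9911 and 9504 at 48 h, against the urea values given above. FBA1 had 4452, 4879.7 and 5074 in urea and 2185, 1642 and 1978 in SA at 6 h (log2 difference -1.32, SE 0.25, adjusted p = 8.81e-05), and at 48 h, with 2437, 2603 and 1710.5 in SA, it was at 0.30 and not called.

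Higher in SA were the dicarboxylate carrier DIT2.1 and the aminotransferase gene AOAT2. DIT2.1 had values of 250.05, 278 and 246 in urea and 413, 475 and 397 in SA at 24 h, and of 295, 242 and 222 in urea and 456, 346 and 346 in SA at 48 h. It was higher than urea by 0.56, 0.73 and 0.59 at 12, 24 and 48 h (SE 0.17; adjusted p = 0.0122, 0.0013 and 0.00835). AOAT2 was higher than urea at 48 h, with 268, 244 and 259 in SA (log2 difference 0.55, SE 0.14, adjusted p = 0.00343). Its SA values were no higher than those of 6 h, at 273, 293 and 354. Its urea values went from 302, 313 and 261 at 6 h to 168, 197 and 161 at 48 h. Measured against the same urea libraries, the L-Glu values of both genes at 48 h were lower, as given above. AT5G36790 was called higher in SA at 24 h at 1.55, from values of 1.93, 0 and 0 in urea and 3.92, 2.22 and 3.63 in SA. These values are too low to compare, and the call was lost in 7 of the alternatives, among them leaving out replicate 2 or 3 of urea or replicate 1 or 3 of SA. Averaged over the 4 times, 17 genes were lower and 3 higher in SA, against 29.2% and 28.2% of all genes, with a median of -0.18. The 3 were DIT2.1, AOAT2 and DiT1, the last at 0.26 (SE 0.094, adjusted p = 0.0181), a call that was lost after quantile normalization, with equal totals and without replicate 3 of every group. The change of the SA difference from 6 to 48 h was up in 5 genes and down in none, against 2.69% and 4.72% of all genes. These were CP12-2 at 1.63, FBA1 at 1.62, FBA2 at 1.07, GAPA at 1.07 and CP12-1 at 0.83. The count was 3 without replicate 3 of urea at 6 h or without replicate 2 of SA at 48 h.

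Because L-Glu and SA share the urea libraries, they were also set against each other directly. At 6 h, L-Glu was lower than SA in 3 genes and higher in 7, against 15.9% and 17.4% of all genes. Leaving out replicate 2 of L-Glu at 6 h left 6 calls, and leaving out replicate 2 or replicate 3 of SA left 5. The lowest were AOAT2 at -0.56, GGT1 at -0.52 and DIT2.1 at -0.46, and the highest CP12-3 at 1.65, RBCS1B at 1.14 and RBCS2B at 0.98. At 12 h, 22 were lower and 2 higher in L-Glu, against 23.3% and 29.1%, from AOAT2 at -1.63, GGT1 at -1.53 and CP12-1 at -1.42 to GAPA-2 at 0.68 and CP12-3 at 1.78. At 24 h, 37 were lower and 1 higher, against 30.8% and 31.7%, led by FBA1 at -5.71, GDCH at -5.49 and SHM1 at -5.35, and at 48 h 38 were lower and 1 higher, against 29.6% and 29.4%. RBCS2B, at -7.93, and RBCS1B, at -7.88, were the lowest at 48 h, followed by GOX1 at -7.78, and CP12-3 was again the gene higher in L-Glu, at 1.65. The median difference between L-Glu and SA was -3.78 at 24 h and -4.91 at 48 h.

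In the urea course itself, many genes went down by 48 h. Compared with mock at 0 h, 2 genes were higher in urea at 6 h (AOAT2 at 0.56 and GLDP1 at 0.94) and none lower, against 1.22% and 0.545% of all genes. At 12 h 1 was higher, GLDP1, and none lower, against 2.91% and 1.68%. Neither of the 2 calls at 6 h held without replicate 2 of mock, the library that stood apart, or without replicate 1 or 3 of urea, and 1 was left without replicate 2 of urea. The call at 12 h was lost without replicate 1 or replicate 2 of urea, and 2 genes were called without replicate 1 of mock. At 24 h, 8 were lower and none higher, against 3.81% and 4.80%, with 4 calls without replicate 1 of mock and 5 without replicate 3 of urea. At 48 h, 29 were called, against 23.7% of all genes in either direction, of which 48.9% were higher. Of the 29, 27 were lower and 2 higher, with a median of -0.83. The 29 calls became 12 without replicate 1 of every group, and 21 to 27 without any single library.

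The lowest members in urea at 48 h were GAPA-2 at -1.50, GAPB at -1.48 and RBCS1A at -1.48. RBCS1A had values of 52092, 31734 and 37283 in mock and 16503, 11696 and 14854 in urea at 48 h, without overlap. The higher ones were GLDP2 at 0.92 (adjusted p = 0.00302) and CAT2 at 0.71 (adjusted p = 0.0398), and the call of CAT2 was lost in 7 of the alternatives, all of which left out libraries. GLDP2 had 3578, 1894 and 2417 in mock and 6145, 4618 and 3921 in urea at 48 h. For this comparison the scaling matters: after quantile normalization RCA, GGT1 and SHM1 stood at 0.16, 0.48 and 0.18 instead of -0.81, -0.30 and -0.63. Urea and time in culture cannot be told apart here, since no mock group of a later time was analysed.

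Ratios of related genes within a library do not depend on library scaling apart from the added 1, and 11 ratios were compared with urea in L-Glu and SA by a two-sided exact permutation test within times, adjusted over these 22 comparisons. The smallest p the design can give is 1.25e-05. In L-Glu the log2 ratio of RBCS1A to the summed B copies was higher by 1.59 (exact permutation p = 1.25e-05, adjusted p = 6.88e-05), by 0.34, 0.75, 2.21 and 3.08 at 6, 12, 24 and 48 h. The same ratio was higher by 0.73 in SA (exact permutation p = 1.25e-05, adjusted p = 6.88e-05), with 0.60 at 6 h and 0.62 at 48 h. In L-Glu the ratio of CP12-2 to CP12-3 changed by -5.07 (exact permutation p = 1.25e-05), and that of CP12-1 to CP12-2 by 1.37 (exact permutation p = 0.0002). For GOX1 to GOX2 the change was -1.18 (exact permutation p = 2.5e-05), with -0.68 at 24 h and -3.58 at 48 h.

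Among the other photorespiratory pairs, the ratio of GGT1 to AOAT2 changed by -1.12 (exact permutation p = 0.0001) and that of GLDP1 to GLDP2 by -1.10 (exact permutation p = 3.75e-05). For 5 ratios L-Glu did not pass the threshold: GAPA to GAPA-2 at -0.13, GAPA to GAPB at 0.27, FBA1 to FBA2 at -0.33, GDCH to AT1G32470 at -0.51 and DiT1 to DIT2.1 at 0.14, with adjusted exact permutation p between 0.0589 and 0.311. In SA 9 of the 11 ratios were called, all with a size of at most 0.73. Without replicate 2 of every group the SA calls of GOX1 to GOX2 and of GDCH to AT1G32470 were lost (adjusted exact permutation p = 0.136 and 0.202), and the latter also without replicate 3 (0.167). GAPA to GAPB at -0.06 and CP12-2 to CP12-3 at -0.40 were not.

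**Figure D4:**
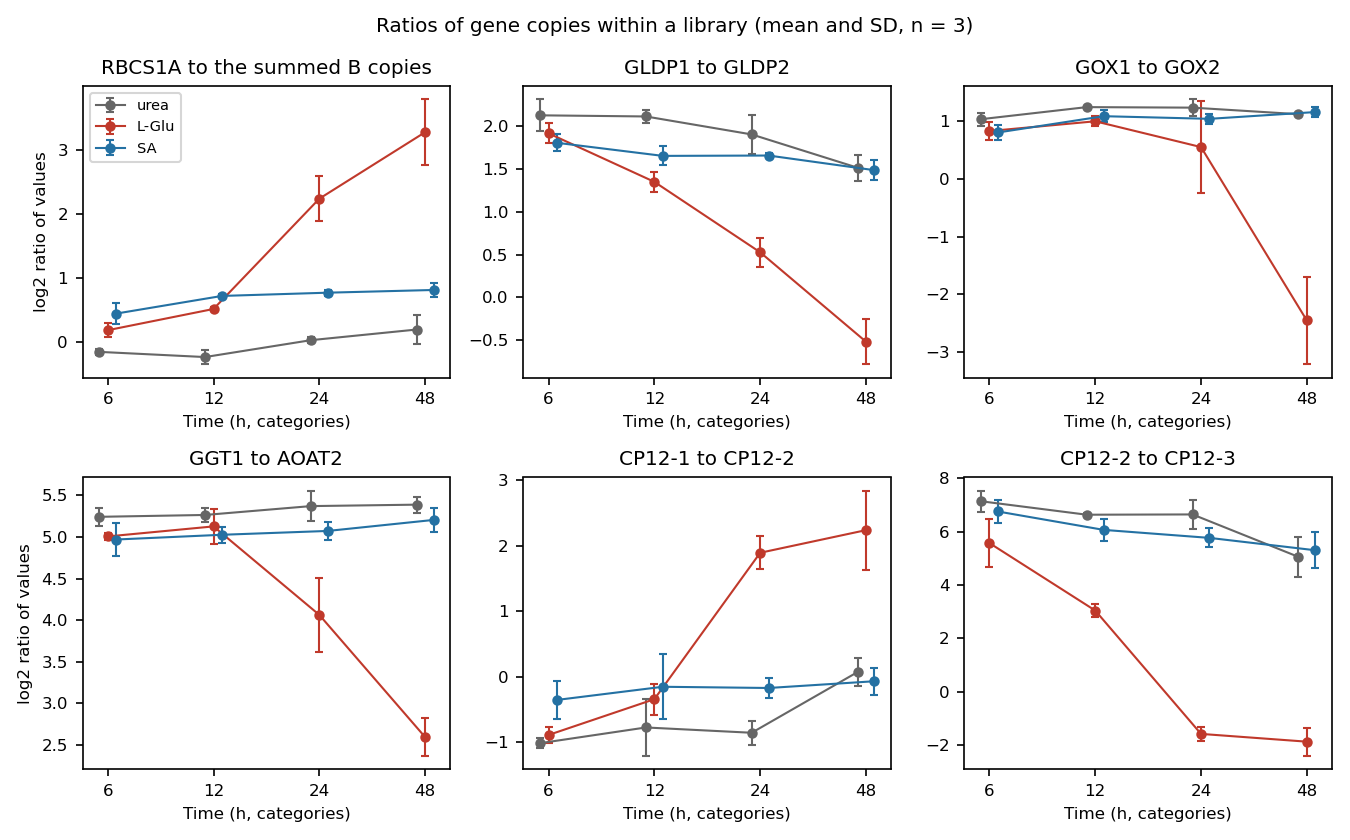
Log2 ratio of 2 related genes within a library for 6 pairs, against time in hours as categories, in urea (grey), L-Glu (red) and SA (blue); points are means of 3 libraries and bars SD. In L-Glu the ratio of RBCS1A to the B copies climbs to 3.08 above urea at 48 h, while those of GLDP1 to GLDP2, GOX1 to GOX2 and GGT1 to AOAT2 drop.

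Genes that code for other forms of the same enzymes, many of them cytosolic, went in both directions as deposited. Of 25 such genes, 15 were lower and 7 higher in L-Glu over the 4 times, with a median of -0.37, against 36.4% and 33.0% of all genes. The higher calls depend on the scaling: 2 genes were higher and 18 lower after quantile normalization, and none higher and 17 lower with equal totals, where the median of all genes lay at -0.53. The lowest were the aldolase gene FBA5 at -4.65, the cytosolic fructose bisphosphatase FBP at -2.04 and the phosphoglycerate kinase family gene AT1G56190 at -1.06. FBA5 had values of 505, 1174 and 975 in urea and 5.40, 1.99 and 2.70 in L-Glu at 48 h. The highest were the hydroxyacid oxidase gene HAOX1 at 0.76 and the aldolase genes FBA4 at 0.72 and FBA6 at 0.69. SHM2, a mitochondrial form of serine hydroxymethyltransferase, stood at -0.11 and was not called, while CAT3 was at -0.44 and TKL2 at -0.37. SHM2 values at 48 h were 128, 112 and 132 in urea and 136, 104 and 138 in L-Glu, with overlap, beside the SHM1 values above.

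Of 19 other genes that serve the pathways, 15 were lower and 4 higher in L-Glu over the 4 times, with a median of -1.20, against 36.4% and 33.0% of all genes. After quantile normalization 15 were lower and 2 higher. With equal totals, where the median of all genes was lower too, 16 were lower and 1 higher. GLU1, the ferredoxin-dependent glutamate synthase that reassimilates photorespiratory ammonium, was lowest at -3.77, with values of 3578, 3962 and 3679 in urea and 48.16, 36.9 and 34.0 in L-Glu at 48 h. Next were the peroxisomal malate dehydrogenase gene PMDH2 at -3.66 and the hydrolase gene AT3G48420 at -2.46. The highest were RBCL, the plastid gene of the large subunit, at 1.24, PMDH1 at 0.59 and the chaperonin gene Cpn60beta2 at 0.48. With equal totals RBCL was still called higher, at 0.74, while PMDH1 at 0.084 and Cpn60beta2 at -0.028 were not called. RBCL had 56.3, 113 and 77.4 in urea and 145, 136 and 153 in L-Glu at 48 h, but plastid transcripts carry few poly(A) tails and no source used here says how the libraries captured them. AT4G22840, a sodium bile acid symporter family gene, was at -0.40.

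The promoter windows were searched on both strands for the G-box CACGTG, which is its own reverse complement, and the I-box GATAAG; the letters of the 2 motifs do not overlap in the sequences printed above. A G-box was found in 6 of the 39 windows (15.4%), against 7.33% of the 19492 windows of the same length, in RBCS2B, HCEF1, PRK, GGT1, AOAT2 and GLDP1. An I-box was found in 6 windows (15.4%), against 12.26%, in RBCS2B, RCA, HCEF1, CP12-2, CP12-3 and GLDP2. Both were present in RBCS2B and HCEF1. RBCS2B held 1 G-box and 3 I-boxes, and RBCS1A neither, in the window shown. RBCS1B, RBCS3B, GOX1, FBA1 and GDCH also fell far in L-Glu, and their windows held neither motif. RCA, HCEF1, PRK and GLDP1 fell far too, with a motif in the window. Others fell less: at 48 h of L-Glu, AOAT2, with a G-box, stood at 51.6% of its urea mean. GLDP2, with an I-box, stood at 10.3%, and TIM, with neither motif, at 50.1%. Bases outside the 250 of each window were not searched. Whether a motif goes with the size of the fall was not tested. The I-box also stood before CP12-3, the gene that rose. These matches describe the letters alone.

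Markers of the shoot were mostly lower in L-Glu. Root markers were called in both directions, and their summed value, mostly PYK10, was higher at 24 and 48 h. Of 12 shoot markers that are not photosynthesis genes, 9 were lower and none higher in L-Glu over the 4 times, against 36.4% and 33.0% of all genes, and their summed values were 365 to 710 (lowest and highest library) in L-Glu at 48 h and 1652 to 1688 in urea. Of 13 root markers, 4 were lower and 3 higher, which is no larger a share than that of all genes, and their sums were 16405 to 20855 in L-Glu at 48 h and 2551 to 3169 in urea. Most of that sum was PYK10, a beta-glucosidase gene of roots, with 2422, 2201 and 2823 in urea and 20461, 16072 and 18116 in L-Glu at 48 h (2.88). At 48 h, 2 root markers were lower and 3 higher, against 27.6% and 25.2% of all genes, and the median over the 13 was -0.34. At 24 h the shoot sums were 586 to 613 in L-Glu and 2017 to 2379 in urea, and at 12 h 996 to 1105 and 2232 to 2943. The root sums at 24 h were 4619 to 8960 in L-Glu, again mostly PYK10, and 3315 to 3632 in urea. At 12 h they overlapped, with 3497 to 3800 in L-Glu and 3118 to 3782 in urea. In SA, 11 of the 13 root markers and 8 of the 12 shoot markers were lower over the 4 times, against 29.2% of all genes. The root hair gene EXPA7 was at 0 in all 3 libraries of SA at 48 h. That could not occur in most groups, since they hold a library in which no gene of the table is at 0. In SA at 24 h, where replicate 2 is such a library, EXPA7 had 0, 0.235 and 0. Equal totals moved the median of all genes down as well, as given above, so counts under that scaling carry this shift. With equal totals, 11 shoot markers were lower in L-Glu over the 4 times, and 7 root markers lower and 1 higher. Their part in the results above was not tested.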

How the data were processed

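The authors deposited normalized signal, in 1 table of 20001 genes by 39 libraries. Their scaling is given nowhere in the sources used here, nor is strandedness, so reads of overlapping or antisense genes cannot be separated. Per the submitters' processing notes the tools were TopHat2 2.1.0, HTSeq 0.6.0 and edgeR 3.22.3 and the build TAIR10, with no roles stated. The values are not counts and depth is unknown, so no count test was run. All 39 columns were matched to samples, and groups and replicate numbers were read from the titles.

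The filter asked for 1 or more in 3 or more libraries, and all 20001 genes passed. A single limma 3.58.1 fit in R 4.3.3 held 13 group means on the log2(value + 1) scale, with a trend in the prior variance and 26 residual degrees of freedom. Two-sided p-values were adjusted by the Benjamini-Hochberg method over all genes within each of 23 comparisons. The fit and the permutation test were tested on simulated data. Gene names, promoter windows and coding sequences came from RefSeq, build TAIR10.1, in which all 40 loci were found.

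The members, lists and tests were chosen with earlier results of these data known. Any member could be named. Values in every library were to be given for 20 listed genes and for the 3 lowest and 3 highest members of L-Glu and of SA over the 4 times, and the 3 lowest and 3 highest were to be named in each comparison. Of the lists of other isoforms and other pathway genes, the 3 lowest and 3 highest in L-Glu over the 4 times and 6 listed genes were named. In the second of these lists a wrong locus was replaced by AT4G22840 after the data were seen.

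Alternatives were added values of 0.25 and 4, no filter and a filter at 5, recomputed trimmed-mean factors (30% and 5% trims), quantile normalization, equal library totals, a fit of the compared groups alone, a block for the replicate number, and leaving out each replicate number or library. The effect of scaling on the lists of other genes and markers was looked at after their values were known.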

Additional observations from a re-analysis of the deposited data

Results flagged for a closer look

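The distance between L-Glu and urea differed between times, by the test of that change itself, in 13 members from 6 to 12 h, 36 from 12 to 24 h, 18 from 24 to 48 h and 36 from 6 to 48 h. Of all genes, 4.88%, 10.9%, 14.4% and 19.1% went down over these spans and 11.6%, 6.77%, 8.15% and 16.4% went up. Leaving out replicates or single libraries gave 1 to 13 calls from 6 to 12 h and 9 to 25 from 24 to 48 h. Between SA and urea the distance differed in 5 members from 6 to 48 h, where 4.72% of all genes went down and 2.69% up. Leaving out replicates or single libraries gave 2 to 7 calls for it. As deposited, AOAT2 and AT1G11860 were the members with a called move back towards urea between 24 and 48 h of L-Glu. Their changes were 1.23 (log2, limma adjusted p = 4.56e-05) and 0.66 (log2, limma adjusted p = 0.0366). With equal totals more members went up over this span, as given above, so this result depends on the scaling. In all, 8 members were no further from urea at 48 h than at 24 h.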

How the results depend on the processing

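Depth is unknown, and the scaling of the deposited values decides some signs. None of the added values, filters or trimmed-mean factors moved a count of called members by over 1.5 times. After quantile normalization the counts were 3 for L-Glu at 6 h, 7 for SA at 48 h, 1 and 2 for urea against mock at 6 and 12 h, and 33 for the change of the L-Glu difference from 6 to 12 h, which was 29 with equal totals. In L-Glu at 12 h, quantile normalization put GAPA-2 at -0.61, RPE at -0.79 and AT1G80380 (GLYK on the list) at -0.65. It put TIM at -0.96 at 24 h, where equal totals gave -0.87, and in urea at 48 h against mock it put RCA at 0.16, GGT1 at 0.48 and SHM1 at 0.18. All of these had the opposite sign as deposited.

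In a fit of the compared groups alone the counts were 15 and 4 for SA at 24 and 48 h, 2 for urea at 12 h against mock, 20 and 11 for the changes in L-Glu from 6 to 12 h and from 24 to 48 h, and 9 for the change in SA. That fit called 1464 of all genes instead of 2304 for L-Glu at 6 h, 679 instead of 353 and 1500 instead of 919 for urea at 6 and 12 h, and 2672 instead of 4514 for the change from 24 to 48 h. Equal totals called 5838 instead of 3291 and 7445 instead of 3535 of all genes for the changes from 6 to 12 h and from 12 to 24 h.

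Equal totals also moved the part of higher genes among all called genes. For SA at 24 and 48 h it was 37.4% and 29.3% instead of 49.3% and 47.5%, and for urea at 24 and 48 h against mock 72.9% and 68.3% instead of 55.7% and 48.9%. For L-Glu against SA at 12, 24 and 48 h it was 35.2%, 22.5% and 36.1% instead of 55.5%, 50.7% and 49.8%. For L-Glu and SA over the 4 times it was 23.5% and 38.6% instead of 47.6% and 49.1%, for the changes in L-Glu from 6 to 12, 12 to 24, 24 to 48 and 6 to 48 h 23.4%, 6.17%, 82.6% and 20.9% instead of 70.3%, 38.3%, 36.1% and 46.1%, and for the change in SA 21.2% instead of 36.3%. Quantile normalization gave 45.99% and 47.2% for the changes from 6 to 12 h and 24 to 48 h and 40.3% for L-Glu against SA at 12 h. It gave 56.3% and 37.6% for L-Glu at 6 and 12 h instead of 72.6% and 54.2%. The cause of these moves was not tested.

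Same-numbered libraries of different groups correlated in their deviations with a mean of 0.0476 over 234 pairs, and 36 of these were over 0.1. Differently numbered libraries had a mean of -0.0238 over 468 pairs, with 10 over 0.1. Deviations from a group mean cancel out within the group, so both means are tied to each other and are not separate measures. Since most same-numbered pairs stayed under 0.1, the numbers were not taken to pair the libraries, although same-numbered ones were somewhat more alike. With the replicate block, 4 genes were called for SA at 48 h and 3 for urea at 12 h against mock, and no other count of members moved by over 1.5 times.

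Leaving out replicates or single libraries gave 0 to 9 calls for L-Glu at 6 h, 24 to 30 at 12 h, 37 to 38 at 24 h and 38 to 39 at 48 h. For SA at 6, 12, 24 and 48 h it gave 7 to 14, 4 to 8, 3 to 7 and 0 to 3, and for L-Glu against SA at 6 h 4 to 8. For urea against mock at the 4 times it gave 0 to 2, 0 to 3, 1 to 9 and 12 to 29. The changes in L-Glu had 1 to 13 calls from 6 to 12 h and 9 to 25 from 24 to 48 h, and the change in SA had 2 to 7. In SA the log2 ratio of GOX1 to GOX2 lay between -0.17 and -0.11 and that of GDCH to AT1G32470 between 0.14 and 0.29.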
